A study of Homo sapiens with 8 samples.

Results

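REV3L, SMC4 and SMC1A are 3 protein-coding genes whose products copy damaged DNA or fold and hold chromosomes. They were examined for RFX7 binding as 3 of the 20037 protein-coding genes placed on GRCh38. An interval belonged to a gene when its midpoint lay inside the gene or within 10 kb of either end. By this rule each of the 3 genes had 1 interval in the list made after Nutlin-3a and 0 in the list made after DMSO. The genes were selected on the presence of intervals in these lists, so the intervals, their fold enrichment and their −log10 q are descriptions and carry no test.

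The lists come from ChIP-seq, the sequencing of DNA recovered with an RFX7 antibody, in the osteosarcoma line U2OS of human origin. Cells of every group were kept for 24 h either with Nutlin-3a at 10 µM, which frees p53 from MDM2, or with the solvent DMSO, and the labels name no genetic change. Per the labels there were 8 samples, with 2 replicates each of RFX7 precipitate and of input DNA under both treatments. The data used here were 1 merged interval list per treatment, with 213 intervals after DMSO and 304 after Nutlin-3a. No value below therefore has a replicate error, the read depth behind each list is unknown, and scores were read only as ranks inside their own list.

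As background, RFX proteins bind DNA through a winged-helix domain. Their classical recognition sequence, the X-box, is a pair of inverted GTTGCC-like motifs separated by a few bases. RFX7 lies downstream of p53 and is known for growth-restraining target genes, and REV3L is among the targets published from the study these libraries belong to. REV3L is the catalytic subunit of DNA polymerase zeta, which extends DNA past lesions that stop the replicative polymerases. SMC proteins are long ATPases that pair into rings: SMC4 pairs with SMC2 in condensin, which compacts mitotic chromosomes, and SMC1A pairs with SMC3 in cohesin, which holds sister chromatids together and forms chromatin loops.

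The interval at REV3L was the highest ranked and the widest of the 3. REV3L runs from 111299033 to 111483711 on chromosome 6 of GRCh38 and is read on the minus strand. Its interval, at 111482858 to 111483431, was 574 bp wide and lay wholly inside the gene. The fold enrichment deposited by the authors was 4.99 and the −log10 q 11.2, a value shared by 5 intervals at ranks 135 to 139 of 304. By fold enrichment it ranked 139, and by width 67. REV3L thus sat near the middle of the Nutlin-3a list on both scores. On which side of the middle depended on the setting: 44.1% of intervals had a higher −log10 q as listed, and 51.6% once intervals within 1 kb of each other were joined.

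REV3L has an outer annotated start at 111483711 and an inner one at 111483218, 493 bp further into the gene. The inner start lay inside the interval, 74 bp from its midpoint, whereas the outer start was 567 bp from the midpoint and outside the interval. RFX7 enrichment was therefore listed over the inner start. The gene that meets REV3L at this end is TRAF3IP2-AS1, an antisense RNA gene with a boundary at 111483472. It overlaps REV3L by 240 bp, its boundary was 328 bp from the midpoint, and 40 bases separated it from the interval. No start of TRAF3IP2-AS1 near REV3L was used here, so only its boundary is given. The list does not tell whether the interval also concerns TRAF3IP2-AS1.

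The DNA leading into the inner REV3L start is shown because the interval covers it. The first sequence is the RefSeq GRCh38.p14 promoter sequence from the edge of the interval to the base before that start (chr6:111483219-111483431, minus strand). The second is 30 bases just after the start (chr6:111483185-111483214, minus strand). Capitals mark GTTGCN or its reverse complement, the core of the RFX motif with a free last base.
REV3L, before the inner start: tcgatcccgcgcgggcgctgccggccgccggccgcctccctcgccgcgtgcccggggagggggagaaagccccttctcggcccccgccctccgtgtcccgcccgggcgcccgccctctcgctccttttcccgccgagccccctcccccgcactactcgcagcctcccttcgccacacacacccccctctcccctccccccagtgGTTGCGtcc
REV3L, after the inner start: catcatcatcatGGCAACaagagctgcagc

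The window around the inner start, 250 bases before to 50 after it, held 2 matches to GTTGCN that straddle the start. One begins 9 bases before it and the other, a full GTTGCC read on the opposite strand, begins 16 bases after it. They are 19 bases apart, more than the spacing of 0 to 3 bases allowed for an X-box in the search, and no X-box match was found in this window. The full GTTGCC lay inside the interval, 55 bp from its midpoint. The window around the outer REV3L start held 0 matches to GTTGCC and to GTTGCN. Both windows are rich in G and C, at 74.0% around the inner start and 75.7% around the outer one, above 88.5% and 91.7% of all promoter windows.

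**Figure D1:**
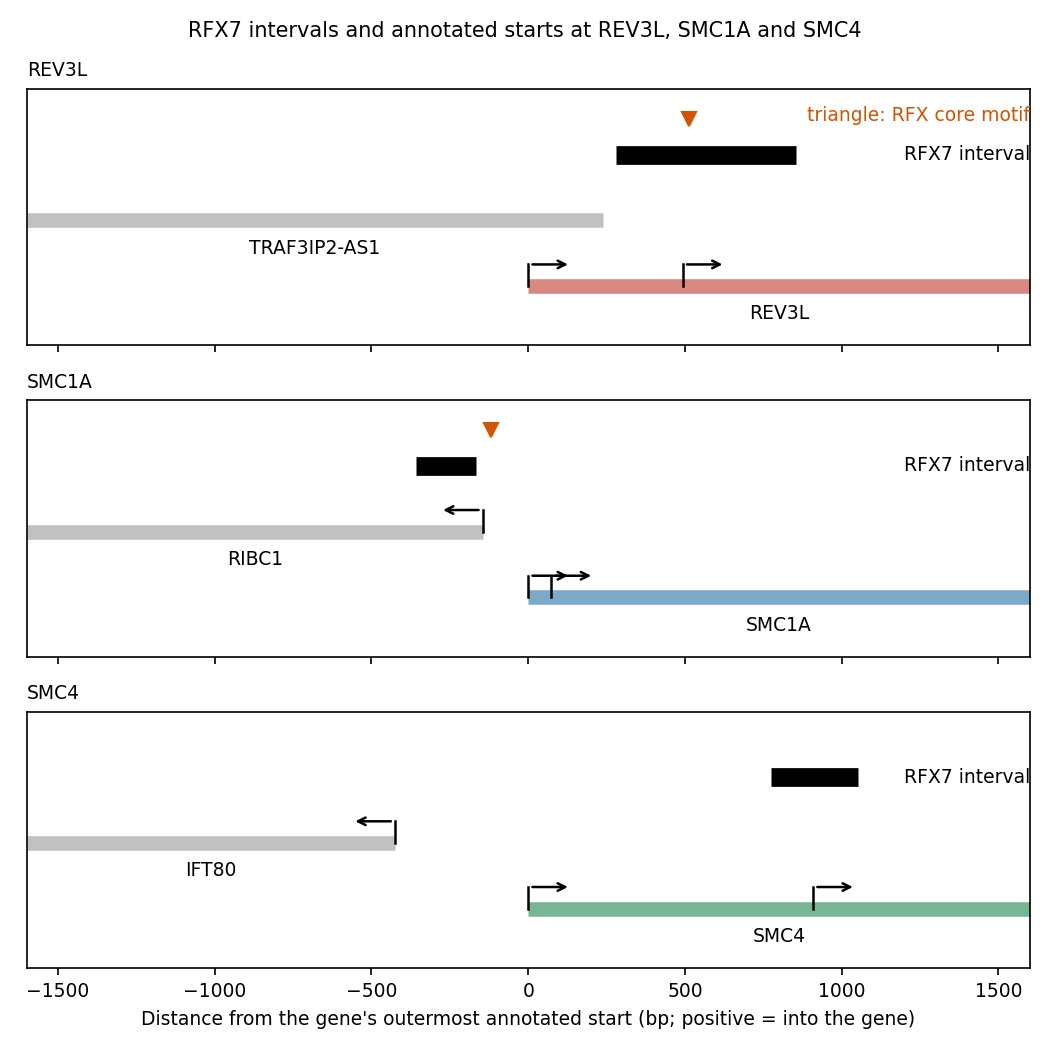
Position of the RFX7 interval listed after Nutlin-3a (black) at REV3L, SMC1A and SMC4, with gene bodies as bars, annotated starts as arrows in the direction of transcription, and matches to GTTGCC as triangles. The horizontal axis is the distance in bp from each gene's outermost annotated start. The intervals cover the inner starts of REV3L and SMC4, while the interval counted for SMC1A lies inside RIBC1. TRIM59-IFT80, which spans the SMC4 region, is not drawn.

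The interval counted for SMC1A did not touch SMC1A. The gene runs from 53374149 to 53422728 on chromosome X and is read on the minus strand. Its interval, at 53422894 to 53423085, was 192 bp wide, began 165 bases beyond the end of SMC1A and had its midpoint 261 bp from that end. The whole interval lay inside RIBC1, which starts at 53422873, 21 bp before the interval, and is read in the opposite direction. RIBC1 encodes a RIB43A-domain protein of ciliary microtubules. Its start was 116 bp from the midpoint and so closer than either SMC1A start, at 261 and 335 bp. The interval belongs to a promoter region that both genes share, and the list does not tell which of them it concerns.

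The SMC1A-RIBC1 interval was near the middle of the list by score and low by width. Its fold enrichment was 4.47 and its −log10 q 9.08, a value shared by 6 intervals at ranks 170 to 175 of 304. It ranked 172.5 by fold enrichment, with ties at their average, and 254 by width. The next Nutlin-3a interval along the chromosome was 54147 bp from SMC1A, outside the 10 kb limit, at 53476733 to 53477018. Its fold enrichment was 4.84 and its −log10 q 11.2, in the same tied ranks as REV3L.

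Between the SMC1A and RIBC1 starts lie 144 bases, printed here because they hold the closest match to an X-box at any of the 3 genes (RefSeq GRCh38.p14, chrX:53422729-53422872, minus strand, the direction of SMC1A). Capitals mark that match.
SMC1A to RIBC1: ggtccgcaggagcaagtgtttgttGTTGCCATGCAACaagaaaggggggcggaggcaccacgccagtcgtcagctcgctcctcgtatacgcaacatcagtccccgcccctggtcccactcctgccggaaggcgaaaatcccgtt

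The match GTTGCCATGCAAC, at 53422836 to 53422848, differs from the searched sequence GTTGCCNGGCAAC by 1 substitution, G8T, counted from 1 at its 5′ end on the SMC1A strand. It begins 120 bases before the outer SMC1A start and, on the other strand, 37 bases before the RIBC1 start. It lay outside the interval, 46 bp from its nearer edge and 147 bp from the midpoint. A GTTGCN match at 53422890 to 53422895 reached the edge of the interval, and no full GTTGCC was found in the searched bases inside it. The 13 bases GTTGCCATGCAAC, looked up after the match was seen, occurred in 3 of 34943 promoter windows, 0.00859%. All 3 were windows of SMC1A and RIBC1 over the same site, which had to match because the 13 bases were copied from it.

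The SMC4 interval was among the weakest in the Nutlin-3a list. SMC4 runs from 160399650 to 160434953 on chromosome 3 and is read on the plus strand. Its interval, at 160400426 to 160400703, was 278 bp wide. Its fold enrichment was 2.84 and its −log10 q 2.56, at the tied ranks 293 and 294 of 304. By fold enrichment it ranked 290.5, with ties at their average, and by width 187. Of all Nutlin-3a intervals, 96.1% had a higher −log10 q, against 55.6% for SMC1A and 44.1% for REV3L. The lowest −log10 q in the list was 1.53, so SMC4 was close to the limit at which intervals were listed.

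The SMC4 interval was nevertheless centred on an annotated start. SMC4 has an outer start at 160399650 and an inner start at 160400559, and the midpoint of the interval was 5 bp from the inner one. The interval spanned from 776 to 1053 bp into the gene and did not reach the outer start, 914 bp from the midpoint. Head to head with that outer start, 425 bp away, is the start of IFT80, a subunit of the intraflagellar transport machinery of cilia. IFT80 was 1339 bp from the midpoint, so the interval was not on the promoter that SMC4 shares with it. The non-coding readthrough gene TRIM59-IFT80 spans the whole of SMC4 and the interval. The microRNA genes MIR15B and MIR16-2, named here after their positions were seen, lie within SMC4, 4024 and 4181 bp from the midpoint.

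The SMC4 sequences are shown because the interval is centred on the start they flank (RefSeq GRCh38.p14, plus strand). The first runs from the edge of the interval to the base before the inner start (chr3:160400426-160400558) and the second is 30 bases just after it (chr3:160400561-160400590). Capitals mark GTTGCN.
SMC4, before the inner start: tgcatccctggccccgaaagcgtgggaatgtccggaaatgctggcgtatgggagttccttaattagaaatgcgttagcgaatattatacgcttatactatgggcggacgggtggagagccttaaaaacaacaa
SMC4, after the inner start: acaaactaagcaGTTGCTcaatcgttgatt

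The window of the inner SMC4 start held 0 matches to GTTGCC and 2 to GTTGCN. One of these, beginning 14 bases after the start, lay inside the interval with its middle 11 bp from the midpoint. The other began 193 bases before the start and lay 55 bp outside the interval. The windows of the outer SMC4 start and of IFT80 held 0 matches to GTTGCC or GTTGCN. With 53.7% G and C the inner SMC4 window was lower than the inner REV3L window. Its ratio of observed to expected CpG was 1.21, and that of the outer SMC4 window, which the interval did not reach, was 1.29; these were above 99.5% and 99.8% of all promoter windows.

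**Figure D2:**
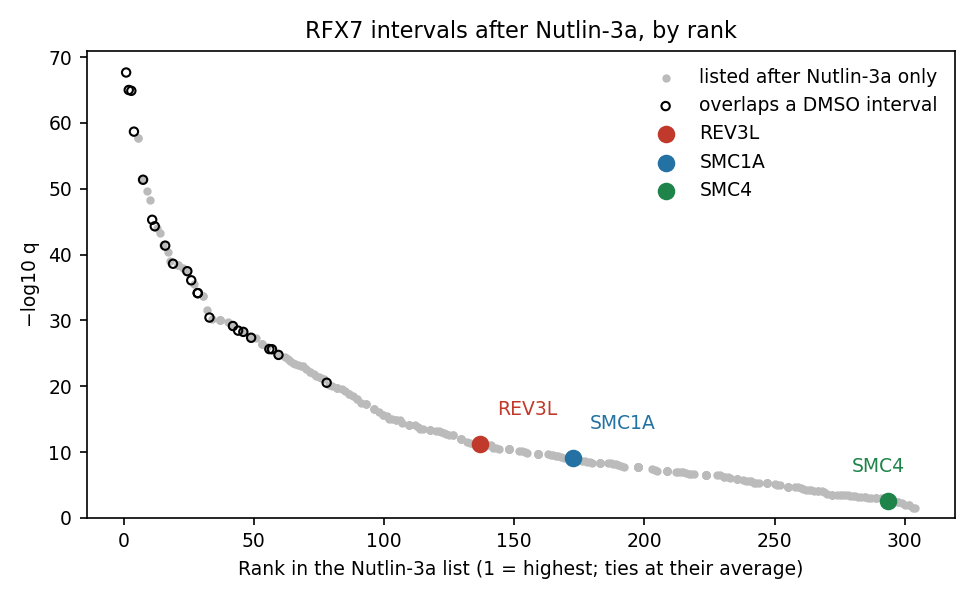
−log10 q of the 304 Nutlin-3a intervals against their rank, with intervals that overlap a DMSO interval as open circles and the intervals at REV3L, SMC1A and SMC4 in colour. All overlapping intervals lie at rank 78 or above, higher in the list than each of the coloured points.

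None of the 3 genes had an interval in the DMSO list, and most of the Nutlin-3a list had no counterpart there. Over all ranks, 22 of the 304 Nutlin-3a intervals overlapped a DMSO interval. Of the 170 Nutlin-3a intervals ranked at or below REV3L's tied ranks, 0 overlapped a DMSO interval by at least 1 bp. These 170 include the intervals at the 3 genes, already known to have no DMSO counterpart, so the count is a description. The 22 intervals that did overlap one all ranked at 78 or higher. Counts by chromosome come from lists of 213 and 304 intervals and were not tested. The DMSO list held 0 intervals on chromosome X, where SMC1A lies, against 8 in the Nutlin-3a list. It held 32 on chromosome 3 and 7 on chromosome 6, where the Nutlin-3a list had 18 and 13. The DMSO interval nearest to REV3L was 11449568 bp away and the one nearest to SMC4 7869343 bp away. Without replicate values and depths, the absence of the 3 genes from the DMSO list was not tested as a change in binding, and treatment and depth cannot be told apart.

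For scale, 1.33% of the 20037 protein-coding genes (266 genes) had a Nutlin-3a interval by the same 10 kb rule, and 0.319% (64 genes) a DMSO interval. These shares stand beside the counts of 3 of 3 and 0 of 3 genes, and nothing is read from them because the genes were picked for their Nutlin-3a intervals. The interval distances were smaller than the limit required: each of the 3 midpoints was under 1 kb from an end of its gene. The next Nutlin-3a intervals beyond the 10 kb limit were 54147 bp from SMC1A, 3150910 bp from SMC4 and 4796364 bp from REV3L.

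**Figure D3:**
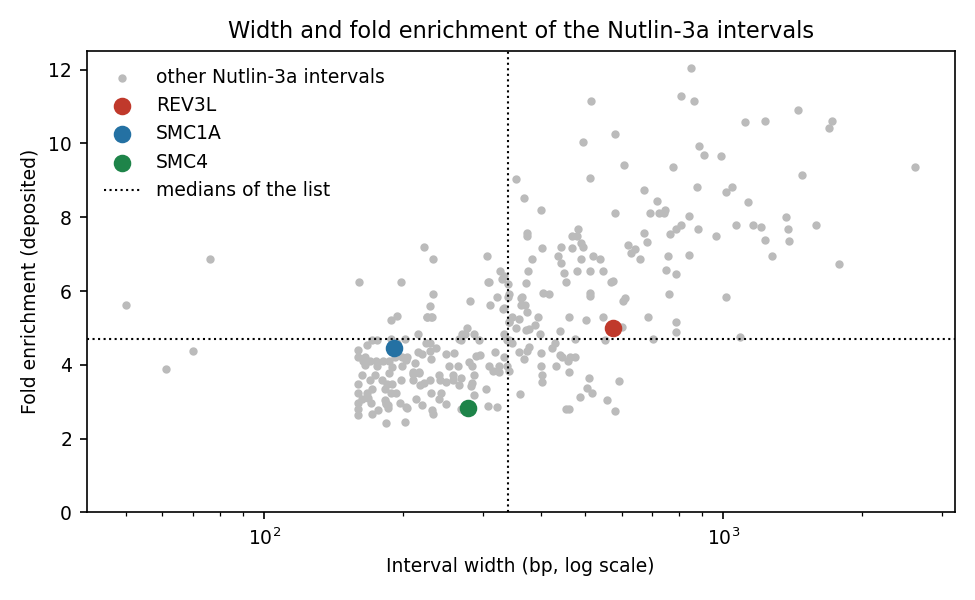
Fold enrichment deposited by the authors against interval width (log scale) for the Nutlin-3a list, with the list medians of 4.71 and 339.5 bp as dotted lines. REV3L lies above both medians, and SMC1A and SMC4 lie below both.

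The midpoints at all 3 genes were close to an annotated start, by 74 bp at REV3L, 5 bp at SMC4 and 116 bp at the RIBC1 side of SMC1A. Of the 294 Nutlin-3a intervals on chromosomes that the promoter table covers, 102 (34.7%) were within 300 bp of an annotated start, 46 (15.6%) within 100 bp and 5 (1.70%) within 10 bp. In the DMSO list 7 of 189 (3.70%) were within 300 bp. SMC4, one of the lowest-ranked intervals, was therefore among the 5 best centred on a start of that table. The table covers 15843 of the 20037 protein-coding genes, so these shares could be higher with more starts.

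A head-to-head protein-coding neighbour was present at SMC1A (RIBC1) and at SMC4 (IFT80). Such a pair, with starts on opposite strands within 1 kb, was found for 10.2% of 15843 protein-coding genes in the promoter table. Among the 103 of these genes with a Nutlin-3a midpoint within 1 kb of their outermost start it was found for 9, or 8.74%. These 9 include SMC4, SMC1A and RIBC1, with SMC1A and RIBC1 counted through the same interval. SMC4 is counted because its midpoint was 914 bp from its outer start, although its interval did not reach that start. The shares of 8.74% and 10.2% are therefore descriptions, and their difference was not tested.

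The partners of the 3 proteins were then looked up, beside a share of 1.33% over all protein-coding genes. The 3 genes were picked for their Nutlin-3a intervals, so their own presence in the counts below is fixed by that choice. Of 17 cohesin genes, which include the core subunits SMC3 and RAD21, the loader NIPBL and the release factor WAPL, 1 had a Nutlin-3a interval within 10 kb, SMC1A. Of 8 condensin genes, which include SMC2 and the NCAP subunits, the only one was SMC4. Of 8 genes of the SMC5/6 complex and related SMC proteins, 0 had one, and 8 genes are too few to read a share from. Of 17 genes of translesion synthesis, among them MAD2L2, POLD2 and POLD3, the other subunits of polymerase zeta, and the Y-family polymerases, the only one was REV3L.

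Apart from the 3 genes themselves, 0 of 47 genes in the 4 groups had a Nutlin-3a interval within 10 kb, where the background was 1.33%. The 3 genes were picked for their intervals, so setting them aside may leave 0 by selection. Nothing is read from this count. The same 0 of 47 was found in the DMSO list, where the background was 0.319%. The nearest Nutlin-3a interval to any of the 47 lay 20316 bp from POLN, the gene of DNA polymerase nu, on chromosome 4 at 2262154 to 2262721, with a fold enrichment of 6.24, a −log10 q of 14.9 and an average rank of 104.5. It was followed by one 27008 bp from MAU2, part of the cohesin loader, at rank 250, and one 30373 bp from REC8, the meiotic cohesin subunit, at rank 252. Under the 10 kb rule, SMC2, SMC3, MAD2L2 and the other listed partners thus had no interval in either list.

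The motif counts were set beside all windows of the promoter table, which covers 15843 of the 20037 protein-coding genes. GTTGCC, searched on both strands, occurred in 12.2% of 34943 RefSeq promoter windows of 300 bases (95% Wilson interval 11.9 to 12.5%) and in 41 of 146 windows that overlap a Nutlin-3a interval, 28.1% (21.4 to 35.9%). It was present in the windows that overlap the intervals at REV3L and SMC1A and absent from that at SMC4. At REV3L the match lay inside the interval, and at SMC1A it lay 46 bp outside. GTTGCN, which includes GTTGCC, occurred in 33.5% of all windows and in 63.0% of those overlapping a Nutlin-3a interval, and all 3 genes had it. GTTNCC, with a free base at another position, was about as frequent in both, at 45.4% of all windows and 48.6% (40.7 to 56.7%) of overlapping ones. GTTNCC also includes GTTGCC, so it had to be present in the overlapping windows at REV3L and SMC1A. It was absent from the inner SMC4 window. An X-box with at most 1 mismatch, GTTGCC facing GGCAAC across 0 to 3 bases, occurred in 1.30% of all windows and in 6 of 146 overlapping ones, 4.11% (1.90 to 8.68%). Without a mismatch it occurred in 0.163% of all windows and in 0 of the 146. That allows a share of up to 2.05% (3 counts of the total, counting error only). Of the 6 windows with at most 1 mismatch, 3 were those of SMC1A and RIBC1 over 1 site, and without them the share was 3 of 143, 2.10%. Windows that share a site are not independent, so these shares are descriptions. The searched windows covered 45.8% of the REV3L interval, 65.8% of the SMC4 interval and 44.3% of the SMC1A interval, and the remaining bases were not searched.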

How the data were processed

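Per the submitters' processing notes, the build was hg38 and the tools included Trimmomatic 0.39, cutadapt 2.10, SAMtools 1.10, Picard, MACS2 2.2.7.1 and bedtools 2.29.2; their settings and the way replicates were merged are not given in the sources used here. The lists deposited by the authors give a fold enrichment (a ratio) and a −log10 q per interval. The score deposited by the authors, 10 times the −log10 q without decimals, was not used, and no summit position is listed, so midpoints were used. Numbers were ranked from the highest, with ties at their average.

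Genes and promoter windows (250 bases before to 50 after a start) came from RefSeq GRCh38.p14, and all 3 genes matched both tables. The gene table gives no exons, so exon, intron and UTR were not assigned. Genes with an end within 1 kb of a midpoint, and related genes with an interval, were named by rule. IFT80 and the microRNA genes were added after their positions were seen. The genes and lists were chosen with earlier results of these data known. Scripts used Python 3.11.15, pandas 2.3.3 and scipy 1.17.1 and were tested on simulated data.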

Additional observations from a re-analysis of the deposited data

How the results depend on the processing

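Intervals at all 3 genes remained in the Nutlin-3a list with limits of 1, 5 or 50 kb and when any overlap counted, and 0 were found in the DMSO list under the same settings. With a −log10 q of at least 10, or at or above the list's median, 1 of the 3 genes was left, REV3L, by construction. Joining intervals within 1 kb left 258 and moved the share ranked above REV3L to 51.6% and that above SMC1A to 64.3%. The background share of protein-coding genes with a Nutlin-3a interval was 0.938% at 1 kb, 1.11% at 5 kb, 2.94% at 50 kb and 0.786% over all annotated genes. In the DMSO list it was 0.559% at 50 kb and 0.246% over all annotated genes. At 50 kb, 3 of the 47 related genes had a Nutlin-3a interval, POLN, MAU2 and REC8. An exact X-box was found in 0 windows at the 3 genes, against 3 windows with GTTGCC. Leaving out the SMC1A and RIBC1 windows, chosen after seeing the data, gave 26.6% with GTTGCC, 62.2% with GTTGCN and 2.10% with an X-box.

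No paired analysis was possible because the merged lists carry no replicate numbers, and alternatives that leave out a replicate were not run for the same reason. Unknown depth limits what ranks, widths and absence from a list can say.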
